A study of Meleagris gallopavo with 24 samples.

Results

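Lipases cut fatty acids from triglycerides, phospholipids or cholesteryl esters. Some act outside the cell on lipoproteins, some act one after the other on the lipid droplet inside the cell, and one acts in the lysosome. The liver uses them to handle lipoprotein remnants and its own lipid stores, and the heart uses them to obtain fatty acids as fuel.

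The lipase genes described here are 7 of the 11587 genes in the turkey (Meleagris gallopavo) count table. LIPI and PLB1 were chosen by the difference between their Sal-exposed and control levels in these same libraries, and are listed by gene identifier. The other 5 (PNPLA2, ABHD5, MGLL, LIPA and LIPG) were found by matching the deposited gene names to 8 lipase names. LPL and LIPC, which are among those 8 names, carried no deposited name and were identified through RefSeq, so they are described beside the 7 members. LIPE was not analysed here. ABHD5 is itself no lipase in this setting but the activator of PNPLA2. LIPI and PLB1 are also named only through RefSeq.

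Female turkeys of the Sal-exposed group ate feed with 21 mg/kg salinomycin (Sal), a polyether ionophore fed to broilers against coccidia, ad libitum in weeks 12 and 13 of life, at an estimated 0.9 mg/kg body weight a day. Control birds ate Sal-free feed over the same weeks, and all birds had Sal-free feed before week 12. Birds were held at 4 per pen, the pen of each bird is not given in the labels, and heart and liver were taken in week 13. The tests below therefore could not account for pen and took the birds of a group as independent. Where a pen held 1 diet, pen cannot be told apart from Sal. RNA was sequenced from 6 Sal-exposed hearts, 6 control hearts, 6 Sal-exposed livers and 6 control livers. Liver control 3 had few reads and was left out of the fits, so 23 libraries were compared.

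Total estimated counts lay between 23372118 and 35979378 in heart and between 15706646 and 31305782 in the fitted liver libraries, and mitochondrial genes took 48.3% to 86.9% of them in heart and 16.7% to 46.2% in liver. Levels are given in CPM, the counts of a gene scaled to the size of its library by the trimmed mean of M values within each tissue. The summed level of 8 hepatocyte genes averaged 220560 CPM in Sal-exposed livers and 222240 CPM in control livers. Most of it was ALB, at 181380 and 182340 CPM, so the sum mainly follows that gene. Of the 8 genes, 3 averaged higher with Sal. HPD passed as higher (3963 against 2289 CPM, adjusted p = 0.0499 in edgeR's quasi-likelihood test). APOA1 averaged lower with Sal (8003 against 14510 CPM) and did not pass. The summed level of 5 cardiomyocyte genes averaged 14998 CPM in Sal-exposed hearts and 9667 CPM in control hearts. Heart Sal 1 stood apart at 39749 CPM against 7122 to 15982 CPM in the other Sal-exposed hearts. MYL2 was the largest part of this sum, at 10225 and 5185 CPM on average, with a highest Sal-exposed value of 32920 CPM. RYR2 (158 against 296 CPM) and ACTN2 (1040 against 1560 CPM) averaged lower with Sal, while 3 of the 5 genes averaged higher. None of the 5 passed edgeR's quasi-likelihood test between Sal-exposed and control hearts. Among the livers, control 1 and control 5 stood apart in the summed level of intestinal enterocyte genes without APOA4, given below with PLB1. Controls 2 and 4 detected the fewest genes, 9563 and 9268, against 10304 to 11055 in the other controls fitted and 10918 to 11350 in the Sal-exposed livers.

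LIPI (ENSMGAG00000014473, Turkey_5.1 chromosome 1, 95764270 to 95781464, protein coding) encodes lipase member I, in humans a membrane-associated phospholipase A1 that acts on phosphatidic acid. In Sal-exposed livers its level ran from 1.86 to 4.10 CPM with a median of 2.67 CPM. The 5 control livers had 20.8 CPM (control 1), 14.1 CPM (control 2), 15.6 CPM (control 4), 23.9 CPM (control 5) and 25.8 CPM (control 6). Every Sal-exposed liver lay below every control liver (10.1% of all genes tested had liver groups without overlap), and the gap between the groups was wider than the range within the Sal-exposed livers. The mean level was 2.90 ± 0.865 CPM in Sal-exposed livers (SD, n = 6) and 20.03 ± 5.08 CPM in control livers (SD, n = 5). The fit gave this as a log2 fold change of -2.79, or 6.90-fold lower with Sal. LIPI was chosen with this contrast known, so the difference is given as a description with no test. It ran from -2.91 to -2.68 on the log2 scale when each liver library was left out in turn, a range whose sign the choice of LIPI had fixed.

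The LIPI counts behind these levels were 51 to 105 in Sal-exposed livers and 297 to 563 in the 5 control livers. The library left out of the fit also held LIPI counts. Scaled by the counts of nuclear genes alone (nuclear CPM), LIPI had 2.95 to 6.12 nuclear CPM in the Sal-exposed livers and 20.4 to 35.2 in the 5 fitted control livers. Liver control 3 had 75 LIPI counts, or 34.25 nuclear CPM, which is inside the range of the other controls. Whether liver control 3 was used in choosing LIPI is not known, so its value is a description and no independent check.

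In heart LIPI was close to absent in these libraries. It had 1 count in Sal 5 and 0 in the other 5 Sal-exposed hearts, and 7, 3 and 4 counts in control hearts 2, 3 and 6 with 0 in the other 3. Too few counts were left for a comparison of LIPI within heart. In Sal-exposed birds LIPI averaged 2.77 CPM in liver and 0.00583 CPM in heart on a scale common to both tissues, and in control birds it averaged 19.5 CPM in liver and 0.104 CPM in heart.

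**Figure D1:**
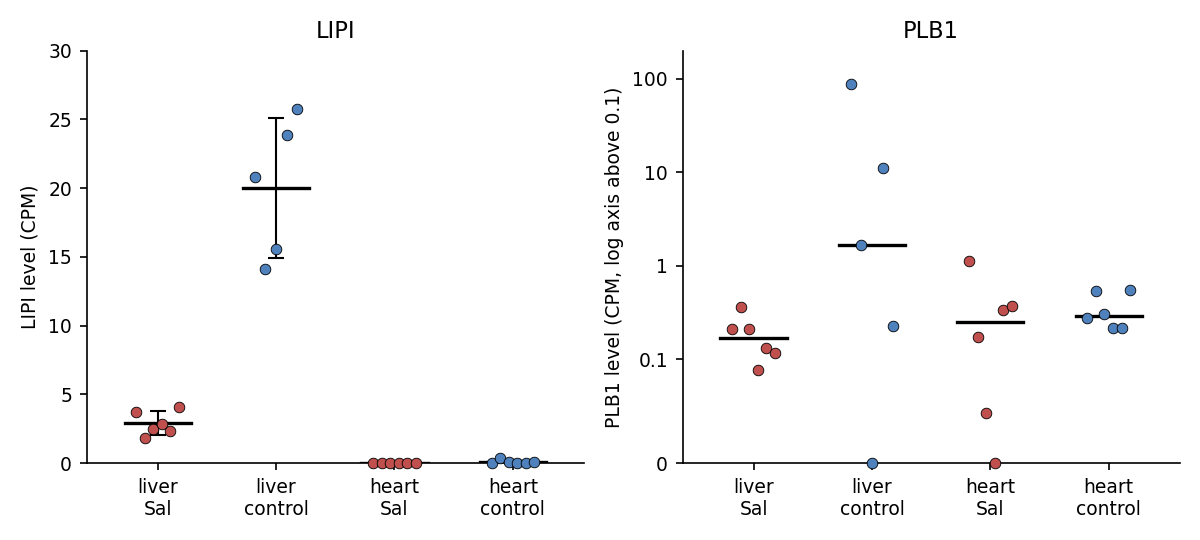
Levels of LIPI (left, linear axis) and PLB1 (right, logarithmic axis above 0.1 CPM) in CPM scaled within each tissue, 1 point per library, in Sal-exposed and control livers and in Sal-exposed and control hearts. Lines and bars are means and SD for LIPI and medians for PLB1. The 6 Sal-exposed livers reach 4.10 CPM of LIPI at most and the 5 control livers start at 14.1 CPM, while PLB1 is above 10 CPM in control livers 1 and 5 alone.

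The genes with a pattern most like that of LIPI over the 11 liver libraries, by Pearson's r of log2 CPM among 7723 genes with a symbol, were RRAGD (r = 0.98), MAP2K2 (r = 0.98), RAB1A (r = 0.97), NDUFS3 (r = 0.96) and NRBF2 (r = 0.96). For LIPI the Sal-exposed and control libraries form separate clusters, so these coefficients run over both clusters and are given as a description. No such list was made for LIPI in heart, where fewer than 6 libraries held a count of it.

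PLB1 (ENSMGAG00000010457, chromosome 2, 26298379 to 26370777, protein coding) encodes phospholipase B1, in mammals a brush border enzyme of the intestine that removes both fatty acids of dietary phospholipids and also cuts retinyl esters. In Sal-exposed livers its level ran from 0.0901 to 0.366 CPM with a median of 0.170 CPM. The control livers had 89.1 CPM (control 1), 1.66 CPM (control 2), 0 CPM (control 4), 11.2 CPM (control 5) and 0.225 CPM (control 6). The control values thus covered the whole Sal-exposed range, and 2 control livers carried nearly all of the PLB1 counts, 2413 in control 1 and 243 in control 5 against 35, 0 and 4 in controls 2, 4 and 6 and 2 to 10 in the Sal-exposed livers. The 0 counts of control 4 allow up to 0.189 nuclear CPM, a limit that covers counting error only. PLB1 did not pass the filter on low counts within either tissue, and it was chosen with its contrast known, so no test is given.

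Most genes of intestinal enterocytes also averaged lower in Sal-exposed livers, and 1 averaged higher. Of 13 enterocyte genes in the table, 12 were highest in liver control 1 among the control livers, and the exception was APOA4, an apolipoprotein, which was highest in control 6. All 13 genes together summed to 486 to 725 CPM in Sal-exposed livers, against 10711 CPM in control 1, 4504 CPM in control 2, 2227 CPM in control 4, 7701 CPM in control 5 and 19376 CPM in control 6. Every control liver was above every Sal-exposed liver in this sum, and control 6, the highest, also had the highest LIPI level. In control 6 APOA4 alone was 99.0% of the sum. Without APOA4, control 6 had the lowest sum of all fitted livers, at 193.8 CPM. Control 1 had the highest sum without APOA4, at 6471 CPM, and was below controls 5 and 6 in LIPI.

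APOA4 made up much of the sum of all 13 genes, at 201 to 500 CPM in Sal-exposed livers and 1970 to 19180 CPM in the 5 control livers. Without it, the other 12 genes summed to 210 to 335 CPM in Sal-exposed livers, against 6471 CPM in control 1, 226 CPM in control 2, 257 CPM in control 4, 1367 CPM in control 5 and 193.8 CPM in control 6. The median of this sum without APOA4 was 240 CPM in Sal-exposed livers and 256.5 CPM in control livers. Controls 1 and 5 alone lay above the Sal-exposed range, and they were also the highest and the next highest in PLB1. In Sal-exposed livers most of the sum was ANPEP and GUCY2C, at 172 and 71.4 CPM on average. VIL1 was higher in every control liver (lowest 3.46 CPM) than in every Sal-exposed liver (highest 2.92 CPM), while the groups overlapped for the other genes of this sum. Of the 11 enterocyte genes tested between Sal-exposed and control livers, 7 were lower in the Sal-exposed livers (adjusted p up to 0.05 in edgeR's quasi-likelihood test). Over all genes tested in liver, 6.89% passed as lower. CDX2, an intestinal transcription factor, had too few counts to be tested. It had 0 counts in all 6 Sal-exposed livers and in 3 of the 5 control livers. The part of intestinal RNA in the PLB1 and LIPI values was not tested.

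**Figure D2:**
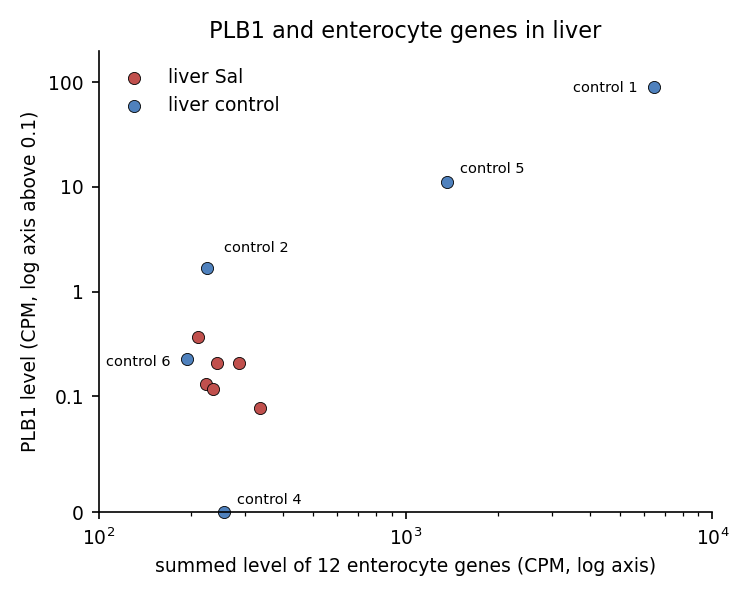
PLB1 level (CPM, logarithmic above 0.1) against the summed level of 12 enterocyte genes without APOA4 (CPM, logarithmic axis) in the Sal-exposed and control livers, 1 point per library. Control 1 (89.1 CPM of PLB1, sum 6471 CPM) and control 5 (11.2 CPM, sum 1367 CPM) lie away from the other 9 libraries, whose sums are at most 335 CPM.

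Over the 11 liver libraries the genes most like PLB1 among 7724 were TMIGD1 (r = 0.98), LGALS2 (r = 0.95), ENPEP (r = 0.94), VIL1 (r = 0.92) and TTC1 (r = 0.92). VIL1, the brush border actin-bundling protein villin, is 1 of the 13 enterocyte genes. In heart PLB1 was sparse, with 0 to 19 counts in Sal-exposed hearts and 8 to 19 in control hearts. It had a median of 0.254 CPM in Sal-exposed hearts, where heart Sal 1 was highest at 1.13 CPM, and 0.291 CPM in control hearts, and the ranges overlapped. The heart genes most like it were SLC31A1 (r = 0.91), GATD1 (r = 0.90), KRT20 (r = 0.88), MEP1A (r = 0.88) and IKZF2 (r = 0.88) over 12 libraries, and with so few PLB1 counts these are weak descriptions.

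The genes taken by name were tested between Sal-exposed and control livers, which asks whether Sal in the feed changed their RNA level. They too were chosen with earlier results of these data known, which the p-values do not account for. With LPL and LIPC, 6 of these 7 genes passed the filter on low counts in liver. PNPLA2 and MGLL, which act at the first and last steps of triglyceride breakdown in the cell, were higher in Sal-exposed livers, and LIPA, ABHD5, LIPC and LPL did not pass the test. Over all 10269 genes tested in liver, 14.3% passed with an adjusted p no higher than 0.05, and 7.36% passed with a positive fold change. Whether more cells of a type or more RNA per cell gave a higher level cannot be told apart in these bulk samples.

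PNPLA2 (ENSMGAG00000009027, chromosome 5, 14898948 to 14920425), adipose triglyceride lipase, takes the first fatty acid from triglycerides on the lipid droplet. It had a lowest, median and highest level of 3.43, 7.23 and 10.003 CPM in Sal-exposed livers, against 1.22, 0.996, 0, 1.71 and 1.46 CPM in control livers 1, 2, 4, 5 and 6. Every Sal-exposed liver was above every control liver, again with no overlap. The mean was 7.30 ± 2.35 CPM in Sal-exposed livers (SD, n = 6) and 1.08 ± 0.658 CPM in control livers (SD, n = 5). PNPLA2 rose with a log2 fold change of 2.76 ± 0.60 (SE), adjusted p = 0.0096 in edgeR's quasi-likelihood test. Counts were 88 to 380 in Sal-exposed livers and 0 to 37 in control livers. The 0 of control 4 allows up to 0.189 nuclear CPM. With each liver library left out in turn PNPLA2 stayed between 2.44 and 2.98 and passed in 11 of 11 fits.

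ABHD5 (ENSMGAG00000011239, chromosome 6, 39559932 to 39586811), known as CGI-58, binds PNPLA2 and activates it. Its levels in Sal-exposed livers had a lowest, median and highest value of 11.2, 13.9 and 21.8 CPM, against 13.8, 15.0, 32.4, 18.1 and 12.3 CPM in control livers 1, 2, 4, 5 and 6. The ranges overlapped, with control 4 above all other livers. ABHD5 had a log2 fold change of -0.32 ± 0.26 (SE), adjusted p = 0.438 in edgeR.

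MGLL (ENSMGAG00000007336, chromosome 14, 9202739 to 9289586), monoacylglycerol lipase, releases the last fatty acid and also ends the signal of the endocannabinoid 2-arachidonoylglycerol. Its span overlaps the gene model of KBTBD12, and no source used here says if reads were counted by strand. MGLL had a lowest, median and highest level of 20.9, 30.5 and 45.1 CPM in Sal-exposed livers, against 3.80, 22.96, 4.32, 8.62 and 11.3 CPM in control livers 1, 2, 4, 5 and 6. Control 2 lay inside the Sal-exposed range and the other 4 controls lay below it. The mean was 32.1 ± 9.18 CPM in Sal-exposed livers (SD, n = 6) and 10.2 ± 7.78 CPM in control livers (SD, n = 5). MGLL rose with a log2 fold change of 1.66 ± 0.41 (SE), adjusted p = 0.0168 in edgeR. It passed in 11 of 11 fits that left out 1 liver library, but not without controls 1 and 5 together (1.30, edgeR adjusted p = 0.0828) nor with liver control 3 included (1.90, edgeR adjusted p = 0.0999, 0 MGLL counts in that library), and its adjusted p ran from 2.93e-13 to 0.0999 over all 22 alternatives.

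LIPA (ENSMGAG00000008364, chromosome 8, 18742305 to 18755253), the lysosomal acid lipase, cuts cholesteryl esters and triglycerides taken up with lipoproteins. Its levels had a lowest, median and highest value of 48.9, 56.1 and 87.6 CPM in Sal-exposed livers, against 42.2, 70.1, 81.7, 56.99 and 34.4 CPM in control livers 1, 2, 4, 5 and 6. The ranges overlapped over most of their width. LIPA had a log2 fold change of 0.11 ± 0.23 (SE), adjusted p = 0.791 in edgeR.

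LIPC (ENSMGAG00000005444, chromosome 12, 4369819 to 4381974), hepatic lipase, is made by hepatocytes and acts on lipoprotein remnants and high density lipoprotein. It had a lowest, median and highest level of 165, 192 and 228 CPM in Sal-exposed livers, against 61.0, 146, 189.6, 78.9 and 62.8 CPM in control livers 1, 2, 4, 5 and 6. Controls 1, 5 and 6 lay far below the Sal-exposed range, control 2 lay just below it and control 4 lay inside it. LIPC had a log2 fold change of 0.83 ± 0.28 (SE) and did not pass, with adjusted p = 0.0613 in edgeR. It passed in 7 of 22 alternatives, with adjusted p values from 4.93e-14 to 0.304 over all 22. In edgeR it passed without control 2 (0.97, edgeR adjusted p = 0.0394) and without control 4 (1.14, edgeR adjusted p = 0.0129). It also passed without both (1.47, edgeR adjusted p = 0.00123) and with library size alone (1.05, edgeR adjusted p = 0.0208). With other tools it passed in DESeq2 (0.81, DESeq2 adjusted p = 0.0302), in limma-voom (1.14, limma-voom adjusted p = 0.00247) and in DESeq2 with surrogate variables (1.07, adjusted p = 4.93e-14).

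LPL (ENSMGAG00000002398, chromosome Z, 48856510 to 48870622), lipoprotein lipase, frees fatty acids from circulating triglyceride-rich lipoproteins on the capillary wall, and LIPG (ENSMGAG00000001317, chromosome 11, 18866280 to 18872960), endothelial lipase, acts mainly on phospholipids of high density lipoprotein. LPL had a lowest, median and highest level of 0.632, 2.94 and 10.4 CPM in Sal-exposed livers, against 1.44, 2.09, 0.192, 0.461 and 5.12 CPM in control livers 1, 2, 4, 5 and 6. The ranges overlapped, and the log2 fold change of 1.10 ± 0.80 (SE) had an adjusted p = 0.381 in edgeR. LIPG had 0 to 26 counts in Sal-exposed livers and 0 to 27 in control livers, too few to be tested.

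**Figure D3:**
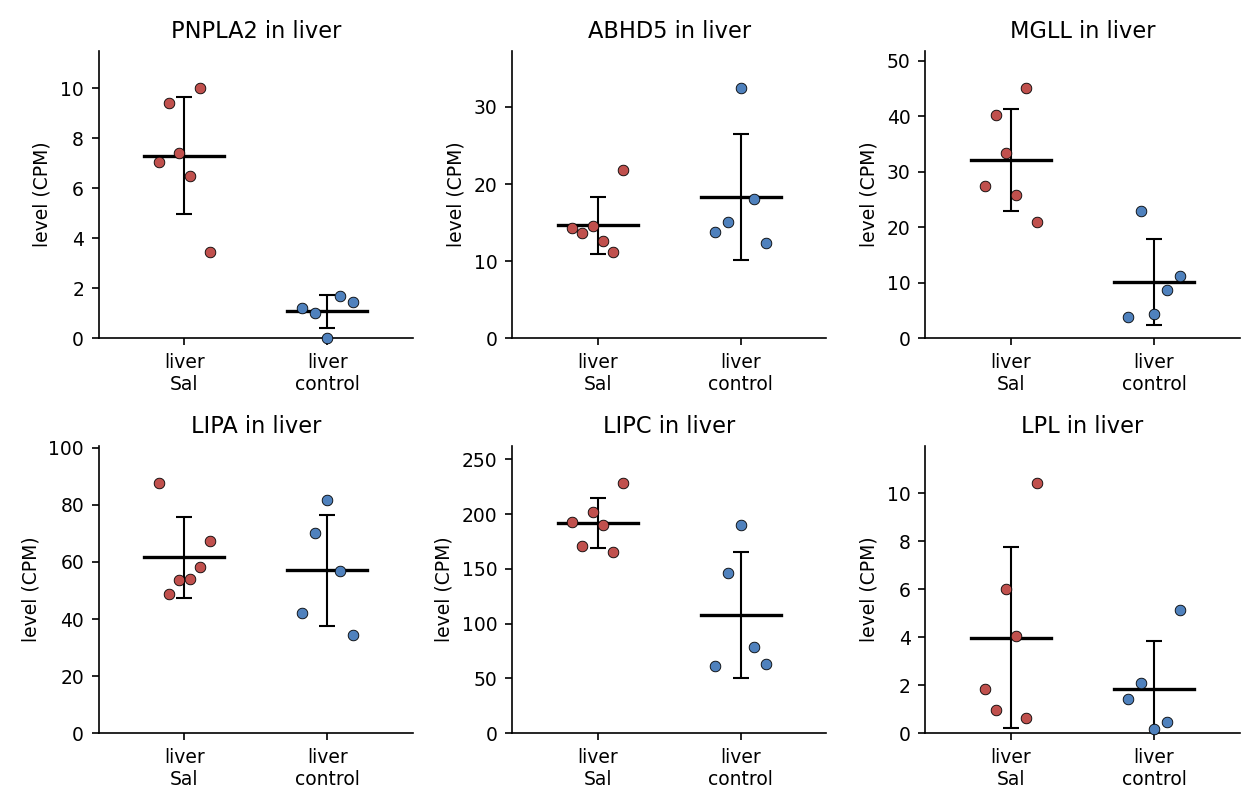
Levels of PNPLA2, ABHD5, MGLL, LIPA, LIPC and LPL in Sal-exposed and control livers in CPM scaled within liver, 1 point per library, with the mean and SD as lines and bars. All 6 Sal-exposed livers are above all 5 control livers for PNPLA2 (lowest 3.43 CPM against a highest of 1.71 CPM), and control 2 at 22.96 CPM is the 1 control inside the Sal-exposed range for MGLL.

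Some genes listed for other cell types also differed between the groups of livers. The summed level of 5 adipocyte genes without LPL averaged 121 CPM in Sal-exposed livers (64.4 to 214 CPM) and 54.8 CPM in control livers (24.3 to 90.8 CPM). Nearly all of this sum was GPD1, at 115 CPM in Sal-exposed livers and 50.1 CPM in control livers on average. In liver the sum therefore mainly follows that gene. Scaled within heart, GPD1 averaged 5.86 CPM in Sal-exposed hearts and 3.95 CPM in control hearts. ADIPOQ averaged higher in heart (61.8 and 75.6 CPM) than in liver (1.11 and 0.659 CPM, Sal-exposed first). PLIN1 and FABP4 also averaged higher in heart, while PPARG averaged higher in liver. Whether this sum follows fat cells in liver was not tested. GPD1 was the 1 of 3 tested that passed, at 1.20 on the log2 scale (edgeR adjusted p = 0.0489). ADIPOQ and PPARG did not pass (edgeR adjusted p = 0.515 and 0.468). Of the 5 genes, 4 had the higher mean in Sal-exposed livers, and FABP4 had the lower one (0.0840 CPM against 0.781 CPM in control livers). PLIN1, the droplet coat protein of fat cells, had counts in 3 of 6 Sal-exposed livers, with a mean of 0.0314 CPM over the 6, and was at 0 in all 5 control livers. The summed level of 5 cardiomyocyte genes averaged 10.4 CPM in Sal-exposed livers (3.34 to 20.1 CPM) and 1.06 CPM in control livers (0.0739 to 4.22 CPM), with 4 of the 5 higher on average with Sal, 1 of 3 tested, MYL2, higher in the test (edgeR adjusted p = 0.00438) and PLN at 0 in every liver. The summed level of 3 endothelial genes averaged 59.4 CPM in Sal-exposed livers (48.1 to 78.1 CPM) and 29.3 CPM in control livers (19.9 to 36.3 CPM). Of the 3, 2 passed as higher. Over all genes tested in liver, 7.36% passed as higher, a share to set beside the counts of each list here. The summed level of 5 macrophage genes averaged 549 CPM in Sal-exposed livers (411 to 816 CPM) and 434 CPM in control livers (269 to 541 CPM). Of these, 4 averaged higher with Sal, and CSF1R alone of the 5 tested passed (1.22, edgeR adjusted p = 0.00571). The part of these cell types in the PNPLA2 and MGLL values was not tested. Most enterocyte genes above averaged lower in the Sal-exposed livers, and the part of intestinal RNA in the PNPLA2 and MGLL values was not tested. Without controls 1 and 5 PNPLA2 passed (3.14, edgeR adjusted p = 0.0319, 2.88e-14 to 0.0468 over its 22 alternatives) while MGLL, as given above, did not. That fit was chosen after seeing the data and keeps control 2, the control inside the Sal-exposed range of MGLL. It also lowered passing genes over the whole table from 1464 to 713. It therefore cannot tell what part intestinal RNA had in either gene.

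Between Sal-exposed and control hearts none of the 6 lipase genes tested passed (0 of 6, also 0 at an unadjusted p under 0.05, and 0 with DESeq2, with DESeq2 and surrogate variables, and with limma-voom). Over all 10265 genes tested in heart, 1.01% passed, and 2.68% had groups without overlap, whereas the groups overlapped for all 6 lipase genes. LIPC had 0 to 5 counts in Sal-exposed hearts and 0 to 4 in control hearts and was not tested.

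LPL had a lowest, median and highest level of 26.9, 119 and 170 CPM in Sal-exposed hearts, against 138, 168 and 201 CPM in control hearts. Heart Sal 1 was the low one, and 4 of the 6 Sal-exposed hearts were below the lowest control heart. The mean was 112 ± 49.1 CPM in Sal-exposed hearts and 171 ± 25.2 CPM in control hearts (SD, n = 6 each), and the log2 fold change was -0.61 ± 0.33 (SE) with adjusted p = 0.341 in edgeR. Without heart Sal 1, the library with the high cardiomyocyte sum, it was -0.41.

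PNPLA2 followed with a lowest, median and highest level of 4.40, 18.2 and 29.0 CPM in Sal-exposed hearts, against 15.8, 25.1 and 37.8 CPM in control hearts. Heart Sal 1 was again the lowest library. The log2 fold change was -0.48 ± 0.36 (SE) with adjusted p = 0.466 in edgeR, and -0.28 without heart Sal 1.

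The remaining heart values lay closer together. ABHD5 ran from 11.7 to 33.0 CPM with a median of 22.4 CPM in Sal-exposed hearts and from 19.7 to 26.8 CPM with a median of 21.9 CPM in control hearts, and a fold change of -0.04 ± 0.23 on the log2 scale (SE; edgeR adjusted p = 0.938). MGLL ran from 15.9 to 31.6 CPM with a median of 21.3 CPM in Sal-exposed hearts and from 13.9 to 31.0 CPM with a median of 20.6 CPM in control hearts, with 0.11 ± 0.24 (edgeR adjusted p = 0.812). For both droplet genes the spread among hearts of 1 group was far wider than the difference between the groups. LIPA ran from 11.1 to 22.8 CPM with a median of 16.4 CPM in Sal-exposed hearts and from 11.3 to 18.9 CPM with a median of 12.8 CPM in control hearts, with 0.28 ± 0.21 (edgeR adjusted p = 0.469). LIPG, the endothelial lipase, ran from 1.21 to 6.73 CPM with a median of 4.44 CPM in Sal-exposed hearts and from 2.02 to 5.06 CPM with a median of 3.31 CPM in control hearts, with 0.21 ± 0.37 (edgeR adjusted p = 0.765).

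**Figure D4:**
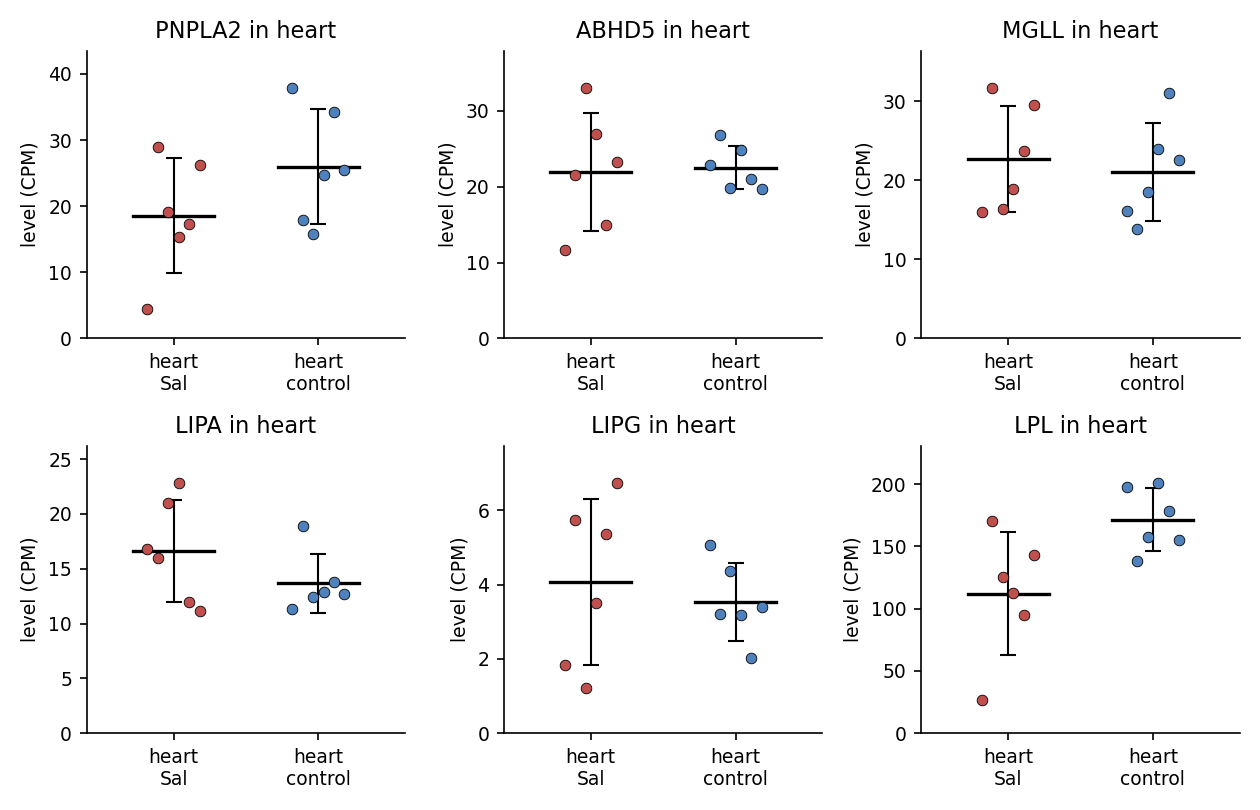
Levels of PNPLA2, ABHD5, MGLL, LIPA, LIPG and LPL in Sal-exposed and control hearts in CPM scaled within heart, 1 point per library, with the mean and SD as lines and bars. The groups overlap for all 6 genes, and the lowest point of LPL (26.9 CPM) and of PNPLA2 (4.40 CPM) is heart Sal 1.

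Whether Sal acted differently on these genes in liver and in heart was tested as the difference between the 2 log2 fold changes in a fit of all 23 libraries. Hearts and livers of a diet were taken from the same 6 birds, but the labels do not say which heart and liver share a bird, so the fit treated the libraries as separate samples and its p-values, here and between tissues below, do not account for shared birds. LIPC with too few counts in heart and LIPG with too few in liver were left out of both kinds of comparison, which leaves 5 genes. Of these, PNPLA2 and MGLL passed, both with the larger fold change in liver, while 19.1% of the 9484 genes tested within each tissue passed and 9.57% did so in that direction. For PNPLA2 the difference was 3.23 ± 0.67 (SE), adjusted p = 0.00305 in edgeR, and it passed in 33 of 33 alternatives. For MGLL it was 1.54 ± 0.49 (SE), adjusted p = 0.0308 in edgeR, and it passed in 27 of 33 (adjusted p 0.00237 to 0.0925). The 6 exceptions for MGLL were the fits without heart control 5 (1.39, edgeR adjusted p = 0.0594), liver Sal 2 (1.46, 0.0537), liver Sal 5 (1.42, 0.0562) or liver control 5 (1.49, 0.0531), without liver controls 1 and 5 together (1.20, 0.0925) and with liver control 3 included (1.95, 0.0646).

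The other differences between liver and heart did not pass in edgeR. LPL, with a negative fold change in heart and a positive one in liver, had a difference of 1.71 ± 0.86 (SE), adjusted p = 0.162 in edgeR, and passed only without liver control 6 (2.53, edgeR adjusted p = 0.0403, range over its 33 alternatives 0.0403 to 0.341). The differences were -0.29 ± 0.35 (SE) for ABHD5, edgeR adjusted p = 0.585, and -0.18 ± 0.31 (SE) for LIPA, edgeR adjusted p = 0.717. LIPI and PLB1 also had too few heart counts for their difference to be read.

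**Figure D5:**
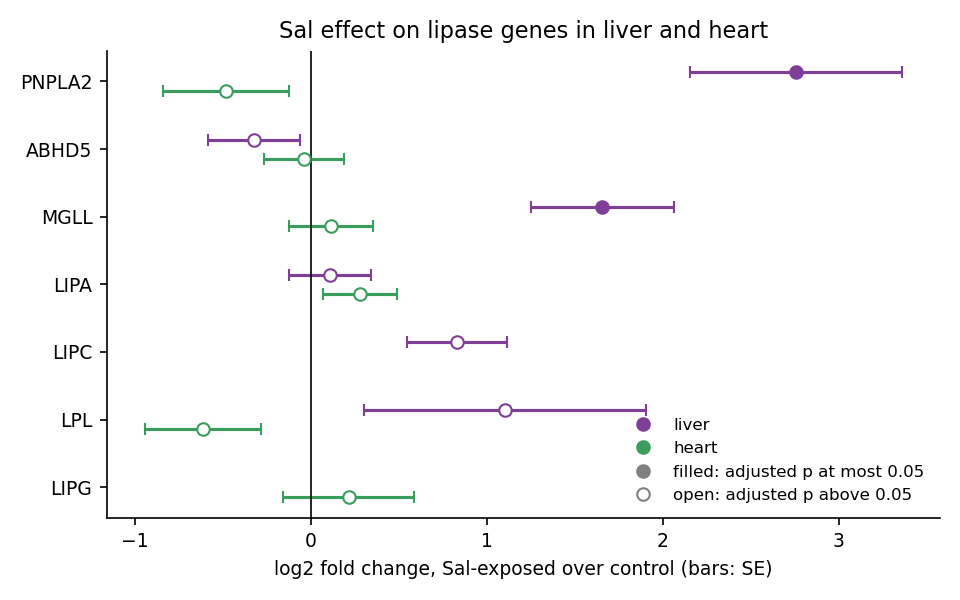
Log2 fold change of Sal-exposed over control (horizontal axis, bars are SE) for 7 lipase genes in liver (purple) and heart (green), filled where edgeR's adjusted p is at most 0.05. PNPLA2 (2.76) and MGLL (1.66) in liver are the filled points, and in heart all 6 points are open.

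The tissues differed in which lipases they held. In Sal-exposed birds, LIPC averaged 183 CPM in liver and 0.0318 CPM in heart on the common scale, and LIPA averaged 58.7 ± 13.3 CPM in liver and 17.1 ± 4.63 CPM in heart (SD, n = 6 each). LPL averaged 3.81 ± 3.59 CPM in liver and 116 ± 51.2 CPM in heart, and LIPG 0.168 ± 0.256 CPM in liver and 4.22 ± 2.35 CPM in heart. LIPC with 0 to 5 counts in heart and LIPG with 0 to 26 in liver passed the filter on low counts through the other tissue alone, so their levels are given with no fold change and no test.

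Of the 5 genes tested between liver and heart of Sal-exposed birds, 4 passed, while 53.2% of the genes tested within each tissue did. The log2 fold changes of liver over heart were 1.78 ± 0.22 for LIPA, -4.93 ± 0.67 for LPL, -1.47 ± 0.44 for PNPLA2 and -0.69 ± 0.25 for ABHD5 (SE), with adjusted p values in edgeR up to 0.0194, that of ABHD5. The ranges of liver and heart did not overlap for 2 of the 5, LIPA and LPL, against 35.4% of the genes tested within each tissue. MGLL, at 30.6 ± 8.63 CPM in liver and 23.5 ± 7.27 CPM in heart (SD, n = 6 each), did not pass (0.38 ± 0.33, edgeR adjusted p = 0.339).

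In control birds 4 of 5 passed as well, against 54.1% of the genes tested within each tissue, and the gene that did not was ABHD5 (-0.40 ± 0.26, edgeR adjusted p = 0.193). The ranges of liver and heart did not overlap for 3 of the 5, against 37.4% of the genes tested within each tissue. PNPLA2 averaged 1.04 ± 0.642 CPM in liver (SD, n = 5) and 27.1 ± 9.21 CPM in heart (SD, n = 6), which is -4.69 ± 0.56 on the log2 scale (SE; edgeR adjusted p = 9.13e-08). MGLL averaged 9.88 ± 7.43 CPM in liver and 22.0 ± 6.79 CPM in heart, and was lower in liver with -1.16 ± 0.36 (SE; edgeR adjusted p = 0.00785). LIPA and LPL had log2 fold changes of 1.96 ± 0.23 and -6.64 ± 0.80 (SE). ABHD5 passed in control birds without heart Sal 1, 3 or 4 or liver control 4, with liver control 3 included and with limma-voom, at adjusted p values from 0.000702 to 0.0432 and up to 0.369 over all 31 alternatives. Diet comparisons and tissue comparisons share libraries, and the tissues were homogenised differently, which cannot be told apart from tissue.

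Of 52 further genes that regulate lipases, coat lipid droplets or cut other lipids, 29 were in the table. In liver 26 were tested and 5 passed, 2 higher and 3 lower with Sal, while of all genes tested in liver 14.3% passed, 7.36% as higher and 6.89% as lower, with a median log2 fold change of 0.05 against 0.03 over all genes tested. The 2 that rose were PLA1A, a phospholipase A1 for phosphatidylserine, at 74.0 ± 11.5 CPM in Sal-exposed livers and 42.9 ± 11.3 CPM in control livers (0.79 ± 0.20, edgeR adjusted p = 0.0177), and DAGLA, which makes the 2-arachidonoylglycerol that MGLL cuts, at 1.72 ± 0.593 CPM in Sal-exposed livers and 0.195 ± 0.267 CPM in control livers (3.13 ± 0.97, edgeR adjusted p = 0.0433). For both, every Sal-exposed liver was above every control liver, and 10.1% of all genes tested had liver groups without overlap.

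Of the 3 that fell in liver with Sal, APOC3 and DDHD1 are described. APOC3, an apolipoprotein that slows LPL, averaged 24.1 ± 14.8 CPM in Sal-exposed livers and 53.2 ± 12.0 CPM in control livers (-1.14 ± 0.35, edgeR adjusted p = 0.041). DDHD1, a phospholipase A1 for phosphatidic acid, averaged 22.7 ± 10.3 CPM in Sal-exposed livers and 47.5 ± 18.8 CPM in control livers (-1.07 ± 0.32, edgeR adjusted p = 0.0368). Both had overlapping groups. PLIN2, the droplet coat protein of the liver, stood at 28.3 ± 7.62 CPM in Sal-exposed livers and 23.04 ± 4.84 CPM in control livers and did not pass (0.30 ± 0.22, edgeR adjusted p = 0.391).

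The liver calls of PLA1A, APOC3, DDHD1 and DAGLA lay close to the threshold and kept their sign in all 22 alternatives. PLA1A passed in 20, and was lost without control 5 (0.72, edgeR adjusted p = 0.0526). APOC3 passed in 11, and was lost without Sal 1, 2, 5 or 6 or control 4, 5 or 6 (-1.12 to -0.97, edgeR adjusted p up to 0.0867). DDHD1 passed in 11, and was lost without Sal 2, 3, 4 or 5 or control 1, 5 or 6 (-1.05 to -0.89, edgeR adjusted p up to 0.094). DAGLA, a gene of few counts in liver, passed in 10, and was lost without any 1 of the 6 Sal-exposed livers or without control 1 or 6 (2.85 to 3.40, edgeR adjusted p up to 0.0871). Over all alternatives their adjusted p values reached 0.117 (PLA1A), 0.123 (APOC3), 0.14 (DDHD1) and 0.0913 (DAGLA).

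In heart 24 of the 29 were tested and 1 passed, while 1.01% of all genes did, with a median log2 fold change of 0.08 against 0.01 over all genes tested. This was LCAT, which esterifies cholesterol in lipoproteins, at 28.6 ± 6.70 CPM in Sal-exposed hearts and 5.22 ± 1.85 CPM in control hearts (2.45 ± 0.26, edgeR adjusted p = 0.000735), and it passed in 20 of 20 alternatives. The groups did not overlap, as for 2.68% of all genes tested in heart. LCAT is also a gene of the liver, at 465 ± 114 CPM in Sal-exposed livers and 572 ± 134 CPM in control livers. In the hearts, 8 hepatocyte genes summed to 830 to 2427 CPM in Sal-exposed hearts and 303 to 608 CPM in control hearts, again without overlap. Most of this sum was APOA1, the main protein of high density lipoprotein, at 1355 CPM in Sal-exposed hearts and 429 CPM in control hearts on average (1.66, edgeR adjusted p = 0.0242), the 1 of 7 hepatocyte genes tested in heart that passed. Of the 8 hepatocyte genes, only 2 averaged higher in Sal-exposed hearts. The others, ALB, APOB, FGB, APOH, AHSG and HPD, averaged lower. Albumin (ALB) averaged 22.7 CPM in Sal-exposed hearts and 29.2 CPM in control hearts. The part of hepatocyte RNA in the LCAT values was not tested.

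Of the further genes, 22 were tested within each tissue, and the difference between the tissues passed for 3 of them, while 19.1% of all such genes passed. These were DAGLA (3.06, edgeR adjusted p = 0.00472), DDHD1 (-1.52, 0.0146) and LCAT (-2.75, 0.000142).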

How the data were processed

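Per the paper's methods, the authors mapped trimmed reads with STAR to Turkey_5.1 and quantified genes with RSEM. The estimated counts as deposited were whole numbers. Of the columns, 24 matched a sample and 12 did not and were not used. The deposited tables of the authors' own comparisons hold fold changes and p-values and served only to name 4985 genes, and 3509 more were named by RefSeq models with at least 50% shared span. edgeR 4.0.16 (R 4.3.3) scaled libraries by TMM, filtered low counts with filterByExpr and tested a robust quasi-likelihood fit per tissue (12 heart and 11 liver libraries) and over 23 libraries with tissue, diet and their product. P-values were Benjamini-Hochberg adjusted over all genes tested, and a gene passed at 0.05. Fold changes used a prior count of 0.125 and correlations a prior count of 2. The SE of a fold change was derived from the F statistic of the quasi-likelihood test, as the absolute log2 fold change over its square root. Levels are not divided by gene length, so genes were not compared with each other. Limits for 0 counts use 3 counts. Alternatives were DESeq2 1.42.0, sva 3.50.0, limma-voom 3.58.1, other scalings and filters, a replicate block and libraries left out, and leaving out liver controls 1 and 5 or 2 and 4 was chosen after seeing the data. The member genes and all gene lists were chosen with earlier results of these data known. Every member is named, LIPI and PLB1 without a test. Of the 52 further genes those that passed are named, apart from 1 that is not reported here, with PLIN2 added after its values were seen. The fit was tested on simulated data.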

Additional observations from a re-analysis of the deposited data

Results flagged for a closer look

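For 6 of 35 groups of libraries examined, 1 library lay apart from the rest of its group by Dixon's criterion, which chance gives in about 1 group in 20. ABHD5 was at 21.77 CPM in liver Sal 6 and at 32.41 CPM in liver control 4. LIPA was at 18.9 CPM in heart control 2, where mitochondrial genes took 84.4% of the counts. Heart Sal 3 (84.9%) and heart Sal 4 (86.9%) had the highest LIPA levels of the Sal-exposed hearts, 21.0 and 22.8 CPM. The share was at most 68.7% in the other hearts, and its part in the LIPA values was not tested. LIPI was at 0.3759 CPM in heart control 2, from 7 counts, and PLB1 at 1.129 CPM in heart Sal 1, from 19 counts. PLB1 was at 89.11 CPM in liver control 1, the library with the highest summed level of 12 enterocyte genes without APOA4.

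The Sal effect differed between liver and heart in the interaction test for PNPLA2, by 3.23 on the log2 scale, and for MGLL, by 1.54.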

How the results depend on the processing

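PNPLA2 passed in 22 of 22 alternatives in liver. The number of lipase genes that passed in liver (2) was 1 with liver control 3 included and 1 without liver controls 1 and 5. It was 3, with LIPC added, with library size alone, with DESeq2, with limma-voom and with DESeq2 and surrogate variables. With single liver libraries left out it was 2 to 3. The number whose Sal effect differed between tissues (2) was likewise 1 with control 3 included and 1 without controls 1 and 5. It was 1 to 3 with single libraries left out. The changed calls of MGLL, LIPC, LPL, PLA1A, APOC3, DDHD1 and DAGLA are given above. In liver against heart of Sal-exposed birds with library size alone, PNPLA2 (-1.23) and ABHD5 (-0.37) no longer passed, which left 2 of the 5 lipase genes in place of 4, nor did the tissue difference of DDHD1 (-1.12, edgeR adjusted p = 0.185). Signs turned only for values that did not pass: with library size alone for MGLL (-0.22) and LIPA (-0.19) in heart and for the tissue difference of LIPA (0.47) and ABHD5 (0.31), with surrogate variables for ABHD5 in heart (0.10), with liver control 3 for the tissue difference of LIPA (0.081) and MGLL in liver against heart of Sal-exposed birds (-0.051), without controls 2 and 4 for the tissue difference of LIPA (0.29) and ABHD5 (0.13), and without controls 1 and 5 for LIPA in liver (-0.036). With single libraries left out, signs turned within -0.0047 to 0.26 for MGLL and -0.19 to 0.089 for ABHD5 in heart, -0.027 to 0.28 for LIPA in liver, and -0.31 to 0.11 for LIPA and -0.44 to 0.13 for ABHD5 in the tissue difference. The cause of these changes was not tested. Library size alone moved the median of all genes to -0.39 in heart and 0.61 in the tissue difference.

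Deviations from the group means were weakly or negatively correlated between libraries of 1 number (r -0.46 to 0.16 in heart, -0.14 to 0.08 in liver, and between liver and heart -0.39 to 0.19 with Sal and -0.18 to 0.12 in controls). Such correlations cannot settle whether a heart and a liver of 1 number share a bird, since 2 tissues of a bird need not deviate alike. With a replicate block PNPLA2 (2.98, edgeR adjusted p = 0.0415) and MGLL (1.90, 0.0137) passed in liver, and so did their tissue differences with liver and heart libraries of 1 number paired (3.66, 0.0196 and 1.87, 0.04), no lipase call changed, DAGLA (4.10, 0.0913) and DDHD1 (-1.06, 0.0505) no longer passed in liver, and passing genes over the whole table numbered 30 against 104 in heart, 716 against 1464 in liver and 1070 against 2060 for the tissue difference. Passing genes in heart also numbered 185 with library size alone, 501 with DESeq2, 1043 with limma-voom and 1139 with surrogate variables. In liver they numbered 823 with library size alone, 2200 with DESeq2, 2516 with limma-voom, 4743 with surrogate variables, 324 with control 3 included, 2543 without controls 2 and 4 and 713 without controls 1 and 5. Depth limits LIPI, LIPC and PLB1 in heart and LIPG in liver, where most libraries hold fewer than 20 counts.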
